A study of Mus musculus with 22 samples.

Results

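The genes described here are 10 members of the insulin-like growth factor (IGF) system and of the Igf2bp family of RNA-binding proteins. They were taken from the count table by symbol alone, and all 10 were found among its 23453 gene symbols. They comprise the ligands Igf1 and Igf2, the receptor Igf1r, the secreted binding proteins Igfbp2, Igfbp3, Igfbp4 and Igfbp5, and the RNA-binding proteins Igf2bp1, Igf2bp2 and Igf2bp3. Reads in 5 or more cells were found for 12719 symbols, of which 9 were members, and Igf2 was the member left out.

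RNA had been amplified and sequenced from 22 single astrocytes whose calcium response to acute EtOH was recorded before each cell was picked with a glass pipette. The labels give 6 S-type (sustained signal), 6 T-type (transient), 5 M-type (mixed) and 5 NR (nonresponsive) cells, and the question addressed was whether the RNA of a cell differs with its type of response. Each cell, NR included, came from the cortex of C57BL/6 pups at postnatal day 0 to 1, from cultures that had been shaken for 6 h, treated with 10 µM cytosine arabinoside for 12 h against other cell types, deprived of serum for 24 h and exposed to EtOH. The labels do not give the animal, culture or collection time of each cell, so a type stands for 1 sample here, and differences between types carry no test. The numbers in the library names run in a block for each type, so that any order of preparation cannot be told apart from the type.

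IGF1 and IGF2 are small secreted peptides related to insulin, and both act on the IGF1 receptor, a tyrosine kinase that signals through insulin receptor substrates and phosphoinositide 3-kinase. Binding proteins hold most of the extracellular ligand, carry it, and either shield it from the receptor or release it after cleavage by proteases. Astrocytes are known as a source of IGF1 and of binding proteins in brain and in culture. The Igf2bp proteins are named for binding Igf2 messenger RNA and are not secreted. They bind many messenger RNAs in the cytoplasm, govern their stability, transport and translation, and are best known from embryonic tissue and from tumours.

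A cell held between 2937786 and 22131076 reads, and between 6319 and 13070 genes with a read. Counts were divided by a size factor per cell, and these normalized counts, averaged over the cells of a type, are called levels. T-type cells 2 and 3 had the lowest size factors, 0.276 and 0.183, so that each of their reads weighed most. All 9 astrocyte markers examined had reads in every type. Their sums per cell were 976 to 7312 CPM (counts scaled to 1000000 reads) for S-type and 1359 to 5979 for T-type. They were 949 to 5418 for M-type and 958 to 8149 for NR cells. Medians were 5817 CPM in NR, 3163 in S-type, 2194 in M-type and 1872 in T-type cells. By level, 4 of the 9 were at least 2-fold lower in T-type than in NR cells, and 1 was higher. The 4 were Slc1a2, S100b, Gfap and Aldoc, with log2 ratios of -5.11, -5.12, -3.59 and -2.21, and Sox9 was at 2.06. Against NR, 5 were lower and 0 higher in S-type cells, and 4 and 0 in M-type cells. The 9 microglial markers summed to at most 0.308 CPM in an S-type cell, 5.14 in a T-type cell and 0.581 in an M-type cell, but to between 0.735 and 44.7 CPM in NR cells. In NR cells 8 of the 9 had reads, among them Cx3cr1, a microglial chemokine receptor, with 812 and C1qa with 251. Only P2ry12, another receptor of these cells, was at 0 there. The part of other cells in the results was not tested. Endothelial markers summed to at most 200.005 CPM, in T-type cell 5, with 4087 reads of Kdr in T-type and 815 of Flt1 in S-type cells, while Cldn5 and Cdh5 were at 0 in every type. Markers of the oligodendrocyte lineage reached 3329 CPM in T-type cell 3 and lay between 32.2 and 2231 in the other cells, with Olig1 read in each type and Sox10 in none. Neuron markers summed to at most 184 CPM in an S-type, 259.3 in a T-type, 258.7 in an M-type and 237 in an NR cell. Rbfox3 and Snap25 had 278 and 455 reads in NR cells, against at most 1 and 9 in another type. Syt1 had 260 reads in T-type and 42 in NR cells, and Slc17a7 was at 0 in every type. Mural cell and fibroblast markers reached 839.9 CPM in T-type cell 6 and 238 in NR cell 5. In T-type cells Col1a2 had 14784 reads, while Col1a1, Col3a1, Dcn, Rgs5 and Kcnj8 were at 0. In NR cells Col1a2 had 6988 and Pdgfrb 2677 reads, while Lum and Rgs5 were at 0.

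Igfbp2 and Igfbp5 carried the most reads of all members, 621457 and 558536 over the 22 cells. They are neighbours on mouse chromosome 1 (GRCm38), at chr1:72824503-72852474 on the plus strand and chr1:72857932-72874884 on the minus strand, and their 3′ ends lie 5457 bases apart. The sequences just upstream of these genes are shown because the pair carried the most reads and had few Igfbp5 reads beside many of Igfbp2 in 2 cells, as described further on. The 2 genes were not closely tied in the other cells either, with a rank correlation of 0.25 over all 22. They are RefSeq promoter windows of GRCm38.p6, written 5′ to 3′ on the strand of the gene, without bases that GENCODE places in the first exon. The Igfbp2 stretch is chr1:72824230-72824479 and the Igfbp5 stretch is chr1:72874885-72875115. Capitals mark GGGCGG, the letters of a GC box, and CACGTG, the letters of an E-box.
Igfbp2: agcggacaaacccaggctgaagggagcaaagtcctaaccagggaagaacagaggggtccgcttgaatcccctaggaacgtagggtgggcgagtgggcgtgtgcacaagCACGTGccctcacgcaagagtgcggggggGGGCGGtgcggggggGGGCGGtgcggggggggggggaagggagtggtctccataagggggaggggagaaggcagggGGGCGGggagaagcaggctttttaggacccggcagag
Igfbp5: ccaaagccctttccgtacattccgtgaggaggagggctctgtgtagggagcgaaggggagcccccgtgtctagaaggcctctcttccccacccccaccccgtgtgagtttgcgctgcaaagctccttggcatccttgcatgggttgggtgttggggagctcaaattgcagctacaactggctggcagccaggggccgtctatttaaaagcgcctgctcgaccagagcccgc

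The Igfbp2 stretch held GGGCGG 3 times and CACGTG once, and the Igfbp5 stretch held neither on either strand. Over the 250 bases upstream of each of 32851 promoters, 32.7% held GGGCGG, 6.02% held CACGTG and 12.4% held TATAAA. Among the 9 members with a window, GGGCGG was also found in those of Igf1r and Igf2bp2, CACGTG in that of Igf2bp3 and TATAAA in that of Igfbp4. The windows of Igf1r and Igf2bp2 were the richest in CpG, with 42 and 40 such dinucleotides against a median of 6 over all promoters, and that of Igf2 held 1. Igf2bp1 has no window in the table used. These matches describe letters in a window and say nothing of a factor bound there.

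**Figure D1:**
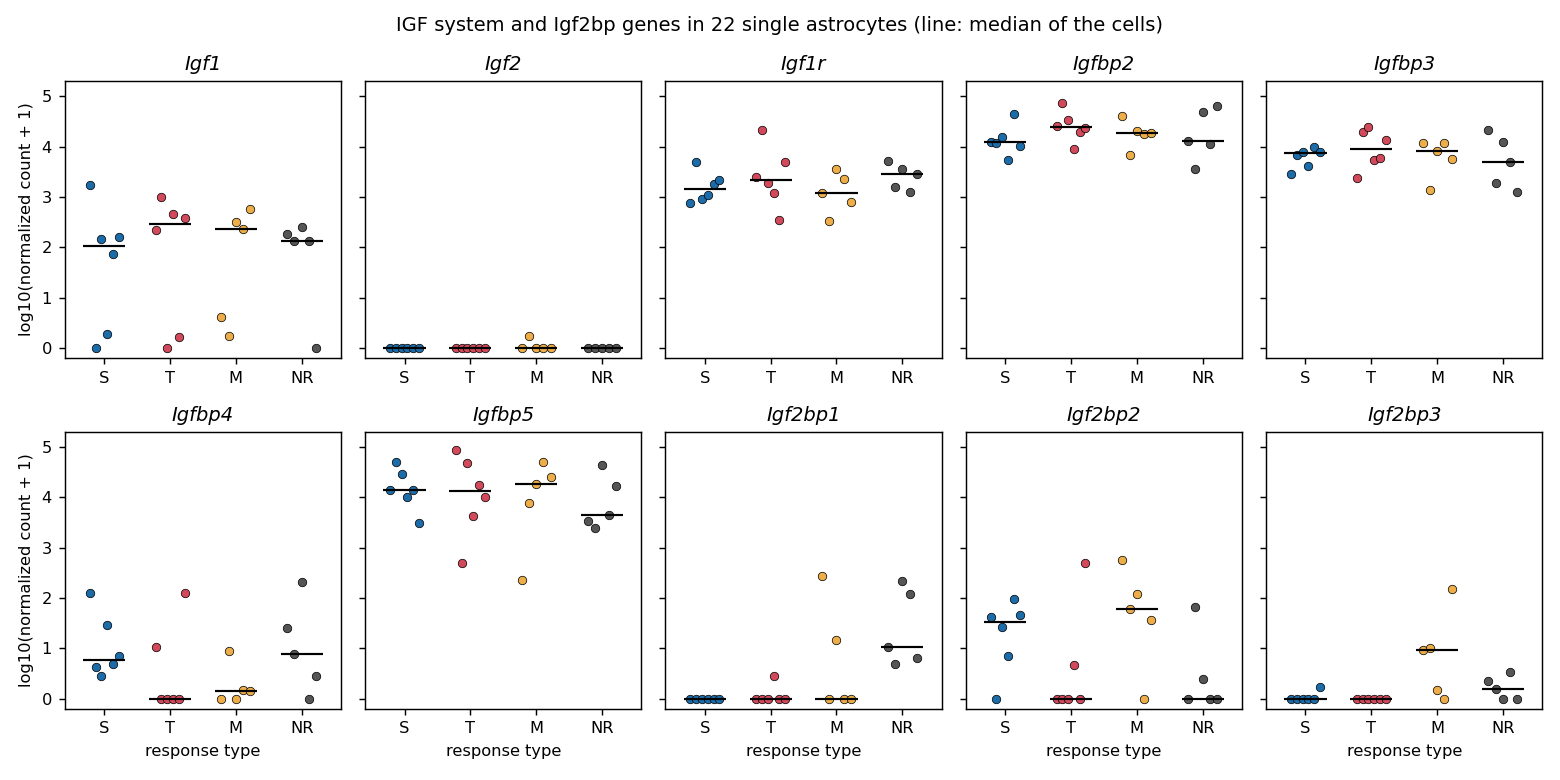
Log10 of the normalized count plus 1 of each member in each of 22 cells, by response type (S, 6 cells; T, 6; M, 5; NR, 5), with each point 1 cell and each line the median of the cells. Igf1r, Igfbp2, Igfbp3 and Igfbp5 had reads in all 22 cells, Igf2 in 1, and Igf2bp1 in all 5 NR cells but in 0 of 6 S-type cells.

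Per length, the members spanned several orders of magnitude. Igfbp2 had a median over the 22 cells of 845 reads per kilobase of exon and 1000000 reads (RPKM), Igfbp3 of 171 and Igfbp5 of 166.05. Igf1r followed with 8.29 RPKM and Igf1 with 1.33, while Igf2bp2 and Igfbp4 had medians of 0.0592 and 0.0447. The medians of Igf2, Igf2bp1 and Igf2bp3 were 0. The order was the same with the length of the longest transcript in place of the merged exons.

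Igf1, the ligand that astrocytes and microglia are known to make, had 7293 reads in 19 of the 22 cells, but it was not present at an even level. At most 5 reads were found in 7 cells, and the other 15 had between 94 and 1907. S-type cells had normalized counts of 0 to 1693 with a median of 108, and T-type cells of 0 to 986 with a median of 300. In the M-type cells Igf1 was at 3.13, 0.70, 312, 232 and 577, and in the NR cells at 183.3, 135, 257, 131 and 0. Cells with next to no Igf1 therefore occurred in every type, and the types overlapped.

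The mean levels of Igf1 were 345 (SD over cells 664, n = 6) in S-type, 341 (SD 368, n = 6) in T-type, 225 (SD 240, n = 5) in M-type and 141 (SD 93.8, n = 5) in NR cells. S-type and T-type cells thus both lay above NR, with log2 ratios of 1.29 (counting interval 1.18 to 1.39) and 1.27 (1.16 to 1.39), and M-type cells at 0.67. These intervals, like all those below, are 95% intervals that cover the counting of reads only and not the spread between cells. S-type cell 1 held 81.9% of the S-type level, and without it the log2 ratio to NR was -0.92. The T-type ratio was 0.59 without T-type cell 2. NR cell 5 had no Igf1 read among 17676402, although the other NR cells had 219 to 357.

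Igf2, the fetal ligand, which is expressed from the paternal allele, had 1 read in M-type cell 2 and none in the other 21 cells. No ratio can be formed from it. In GENCODE vM21 its exons share 3596 bases with a read-through transcript that is not in the table. Whether the counting knew of that transcript, and whether it bears on the Igf2 count, was not tested. Its imprinted neighbour H19 had 7 reads, all in S-type cells.

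Igf1r, the receptor for both ligands, had between 352 and 8541 reads in each cell. S-type cells had normalized counts of 741 to 5031 with a median of 1463, and T-type cells of 348 to 21571 with a median of 2182. M-type cells were at 1177, 324, 3515, 2228 and 807, and NR cells at 5185, 1599, 3584, 1258 and 2791. All types overlapped, and T-type cell 2 stood above every other cell. By CPM, which uses no size factor, that cell was still the highest, at 473, but close to NR cell 1 at 429 and T-type cell 6 at 423.

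The level of Igf1r was 5383 (SD 8075, n = 6) in T-type, 2884 (SD 1588, n = 5) in NR, 1964 (SD 1601, n = 6) in S-type and 1610 (SD 1274, n = 5) in M-type cells. The log2 ratio of T-type to S-type cells was 1.46 (1.42 to 1.49), but it was 0.13 without T-type cell 2 and 0.54 with CPM of pooled reads. Against NR, the T-type ratio of 0.90 turned to -0.43 without that cell and to -0.10 with CPM of pooled reads. S-type and M-type cells were below NR with each scaling tried, at -0.55 and -0.84 with the size factors used here.

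**Figure D2:**
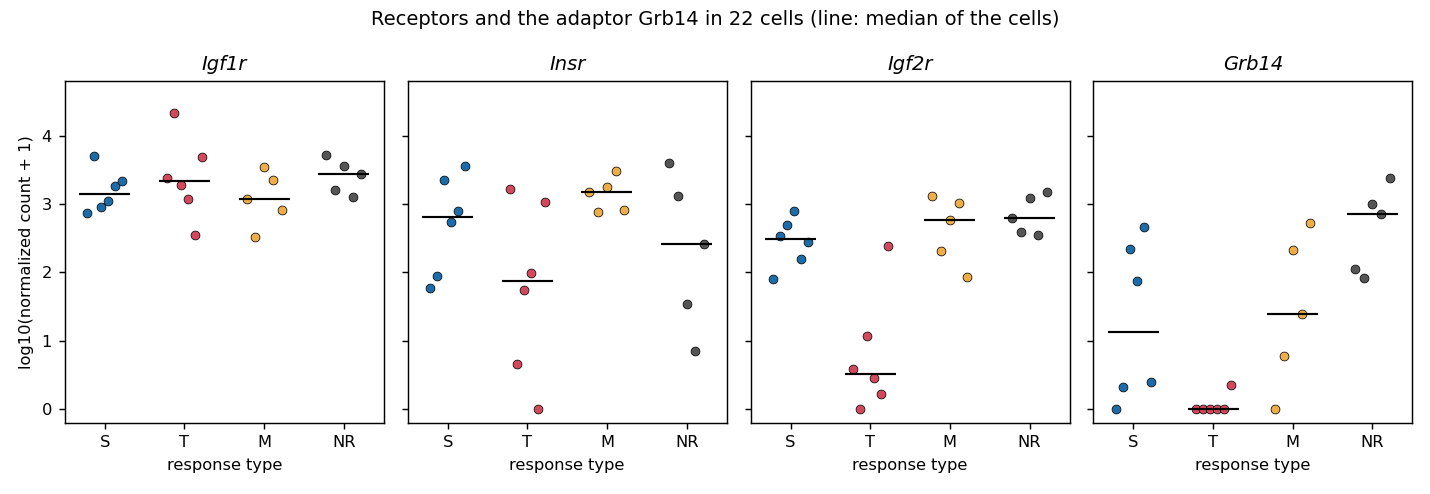
Log10 of the normalized count plus 1 of the receptors Igf1r, Insr and Igf2r and of the adaptor Grb14 in each of 22 cells by response type, with each point 1 cell and each line the median of the cells. Igf2r had at most 2 reads in 5 of the 6 T-type cells and Grb14 had 2 reads over all T-type cells, while NR cells had at least 579 and 145 reads of them.

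Of the other receptors of the system, Insr, the insulin receptor, was uneven in each type, and Igf2r, the receptor that takes up IGF2 for breakdown, was scarce in T-type cells. Igf2r had 2, 0, 2, 1, 1 and 385 reads in T-type cells 1 to 6, and between 88 and 2076 reads in each of the other 16 cells. Normalized counts were 0 to 247 in T-type and 346 to 1476 in NR cells, so these types did not overlap, as was the case for 1.07% of all genes whose mean level reached 10. The level was 43.8 in T-type against 811 in NR, a log2 ratio of -4.21, and against S-type cells the ratio was -3.01. Airn, a noncoding RNA transcribed against Igf2r, had 319 reads in all. Whether the counting used the strand was not given in the sources used here, but the exons of the 2 genes share no bases in GENCODE vM21. Insr had 1 read in T-type cell 2, 0 in T-type cell 5 and 10 in NR cell 4, against 6539 in NR cell 1.

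The binding proteins Igfbp2, Igfbp3 and Igfbp5 were high in nearly every cell, and Igfbp4 was not. Igfbp2 had normalized counts of 5311 to 44972 in S-type cells (median 12164) and of 9099 to 74795 in T-type cells (median 24717). M-type cells were at 40846, 6815, 20085, 17813 and 18246, and NR cells at 12588, 3535, 47449, 11393 and 64991. The lowest and the second highest Igfbp2 of the series were thus both found in NR cells. Levels were 30997 (SD 22886, n = 6) in T-type, 27991 (SD 26732, n = 5) in NR, 20761 (SD 12383, n = 5) in M-type and 16762 (SD 14222, n = 6) in S-type cells, and the cells of each type overlapped with those of the next in this order.

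Igfbp3, the main carrier of IGFs in the circulation, ranged from 2913 to 9642 in S-type cells (median 7305) and from 2363 to 24065 in T-type cells (median 9601). It was at 11675, 1355, 8335, 11983 and 5715 in M-type and at 21544, 1860, 12152, 4824 and 1259 in NR cells. Levels were 11755 (SD 8658, n = 6), 8328 (SD 8564, n = 5), 7813 (SD 4435, n = 5) and 6528 (SD 2508, n = 6) in T-type, NR, M-type and S-type cells, the same order as for Igfbp2. T-type cells lay above S-type cells by 0.85 (log2) for Igfbp3 and by 0.89 for Igfbp2, and with CPM of pooled reads these ratios were 0.06 and 0.10. Against NR the T-type ratios were 0.50 and 0.15, and both turned negative with CPM of pooled reads, at -0.30 and -0.38.

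Igfbp5, which binds to extracellular matrix as well as to IGFs, varied most among the abundant binding proteins. It ranged from 3046 to 50468 in S-type cells (median 13822) and from 486 to 87360 in T-type cells (median 13842), and it was at 223, 7580, 18531, 48795 and 24733 in M-type and at 3347, 2437, 44485, 4328 and 16864 in NR cells. The levels were 27921 (SD 33638, n = 6) in T-type, 20059 (SD 17188, n = 6) in S-type, 19972 (SD 18702, n = 5) in M-type and 14292 (SD 17874, n = 5) in NR cells, with overlap throughout. The ratios to NR were 0.97 for T-type, 0.49 for S-type and 0.48 for M-type cells, and NR cell 3 held 62.3% of the NR level. Without that cell the 3 ratios were 2.05, 1.57 and 1.57. They were 0.17 without T-type cell 1, -0.03 without S-type cell 2 and -0.16 without M-type cell 4.

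T-type cell 2 and M-type cell 1 stood apart in the balance of the 2 neighbouring genes. T-type cell 2 had 134 reads of Igfbp5 beside 20624 of Igfbp2, and M-type cell 1 had 356 beside 65292, whereas every other cell had at least 2358 reads of Igfbp5. M-type cell 1 had the most Igfbp2 of its type. T-type cell 2 did so by normalized count, but by CPM it was at 1641, below T-type cell 6 at 2086. Over all 22 cells the rank correlation of the 2 genes was 0.25, and these cells share a protocol but differ in depth.

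**Figure D3:**
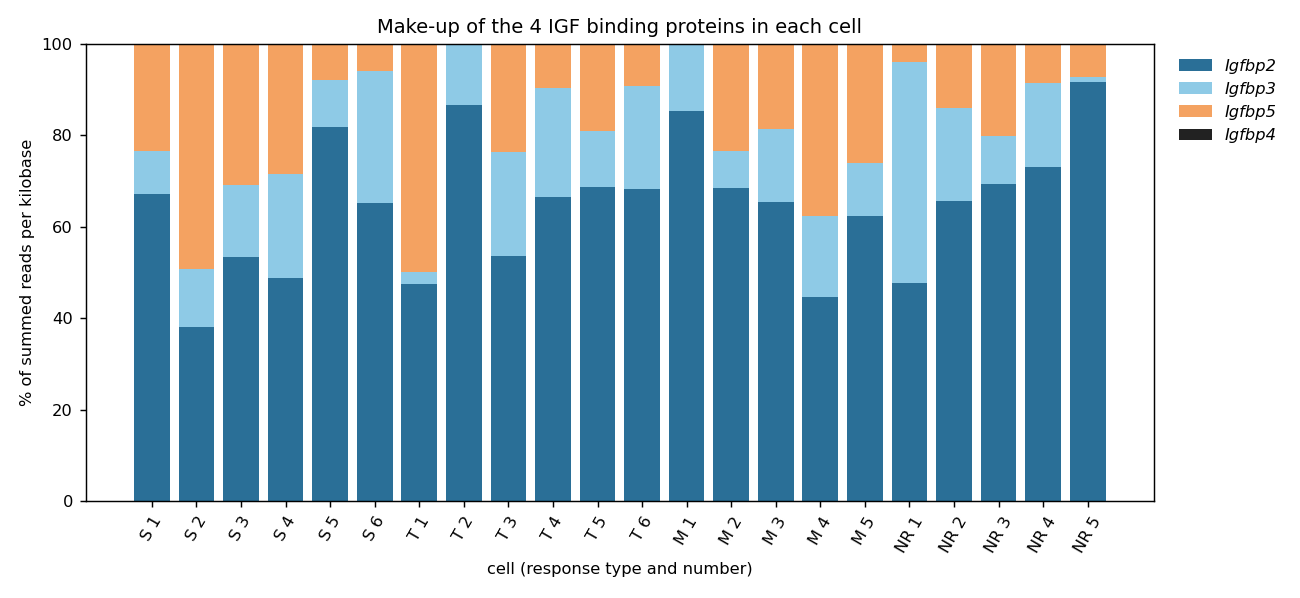
Share of Igfbp2, Igfbp3, Igfbp5 and Igfbp4 in the summed reads per kilobase of these 4 genes in each of 22 cells (S, T, M, NR and cell number). Igfbp2 took the largest share in 19 cells, Igfbp5 in 2 and Igfbp3 in 1, and Igfbp4 was below 0.3% in every cell.

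Within the summed reads per kilobase of the 4 binding proteins, Igfbp2 took between 38.1% and 91.6% of a cell, with a median of 66.1%. Igfbp3 took a median of 15.1% and Igfbp5 of 18.8%. Igfbp2 led in 19 of the 22 cells, Igfbp5 led in S-type cell 2 (49.1%) and T-type cell 1 (49.9%), and Igfbp3 led in NR cell 1 (48.3%). The Igfbp5 share was lowest in M-type cell 1 and T-type cell 2, at 0.143% and 0.173%. The median Igfbp5 share was 25.7% in S-type, 23.4% in M-type, 14.4% in T-type and 8.55% in NR cells, and the ranges overlapped in each pair of types.

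Igfbp4, a binding protein that holds IGFs back until the protease pregnancy-associated plasma protein A cleaves it, had 748 reads in 15 cells. All 6 S-type cells had reads, from 3 to 140, but only 2 of the 6 T-type cells did, with 7 reads in cell 1 and 190 in cell 6. M-type cells had 0, 11, 0, 1 and 1 reads, and NR cells had 41, 12, 292, 0 and 2. NR cells had a level of 48.7, S-type cells of 27.9, T-type cells of 21.9 and M-type cells of 1.73, and in each type 1 cell held at least 74.3% of it. The M-type ratio to NR was -4.81 (-5.74 to -4.02) and -2.28 without NR cell 3. The T-type ratio to NR was -1.15, and it turned to 1.39 without NR cell 3.

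Igf2bp1, the best known of the 3 RNA-binding proteins through its hold on beta-actin and Myc messenger RNA, was the member that most separated types. All 5 NR cells had reads, namely 16, 7, 296, 203 and 6. None of the 6 S-type cells had a read, and among 6 T-type cells there was 1 read, in cell 4. M-type cells were split, with 442 reads in cell 1, 29 in cell 3 and none in the other 3. NR cells lay above all S-type and all T-type cells, a separation that 0.433% and 1.07% of all such genes had, and M-type and NR cells overlapped.

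The level of Igf2bp1 was 70.7 (SD 93.8, n = 5) in NR and 58.0 (SD 122, n = 5) in M-type cells, 0.304 in T-type cells and 0 in S-type cells. S-type cells were at least 175.7-fold below NR, a bound formed with 3 reads over the type. A count of 0 among the 87594314 reads of S-type cells allows up to 0.0342 CPM, for counting error only. The T-type log2 ratio to NR was -7.86 with an interval of -13.17 to -5.38. Both ratios stayed past 2-fold without any one cell and with each scaling tried. In a single random draw that thinned every cell to 2937786 reads, all 5 NR cells still had a read. NR cells 1, 2 and 5 held only 16, 7 and 6 reads before thinning, so another draw could leave some of them without one. The M-type ratio to NR was -0.29, and -4.38 without M-type cell 1.

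Genes with reads placed like those of Igf2bp1 were also counted. Of the 12719 genes found in 5 or more cells, 7614 had a read in every NR cell, and 2 of these had no S-type read. They were Igf2bp1 and Srgn, a proteoglycan gene of blood-derived cells, with 1288 NR reads, and Igf2bp1 alone also had at most 1 T-type read. The count was made after the values of Igf2bp1 were known, and its pattern was taken from them, so Igf2bp1 was in it by design. Abundant genes could hardly enter it, and like patterns of the other types were not counted. It therefore gives no measure of how rare such a pattern is. Microglial markers also had their highest sums in NR cells, and the neuron markers Rbfox3 and Snap25 had most of their reads there, while Syt1 had its most in T-type cells. In NR cells 1 to 5 the microglial sums were 18.2, 44.7, 1.13, 29.9 and 0.735 CPM, beside 16, 7, 296, 203 and 6 reads of Igf2bp1. M-type cells 1 and 3, with 442 and 29 reads, had sums of 0.581 and 0.046 CPM. A link between these values was not tested.

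**Figure D4:**
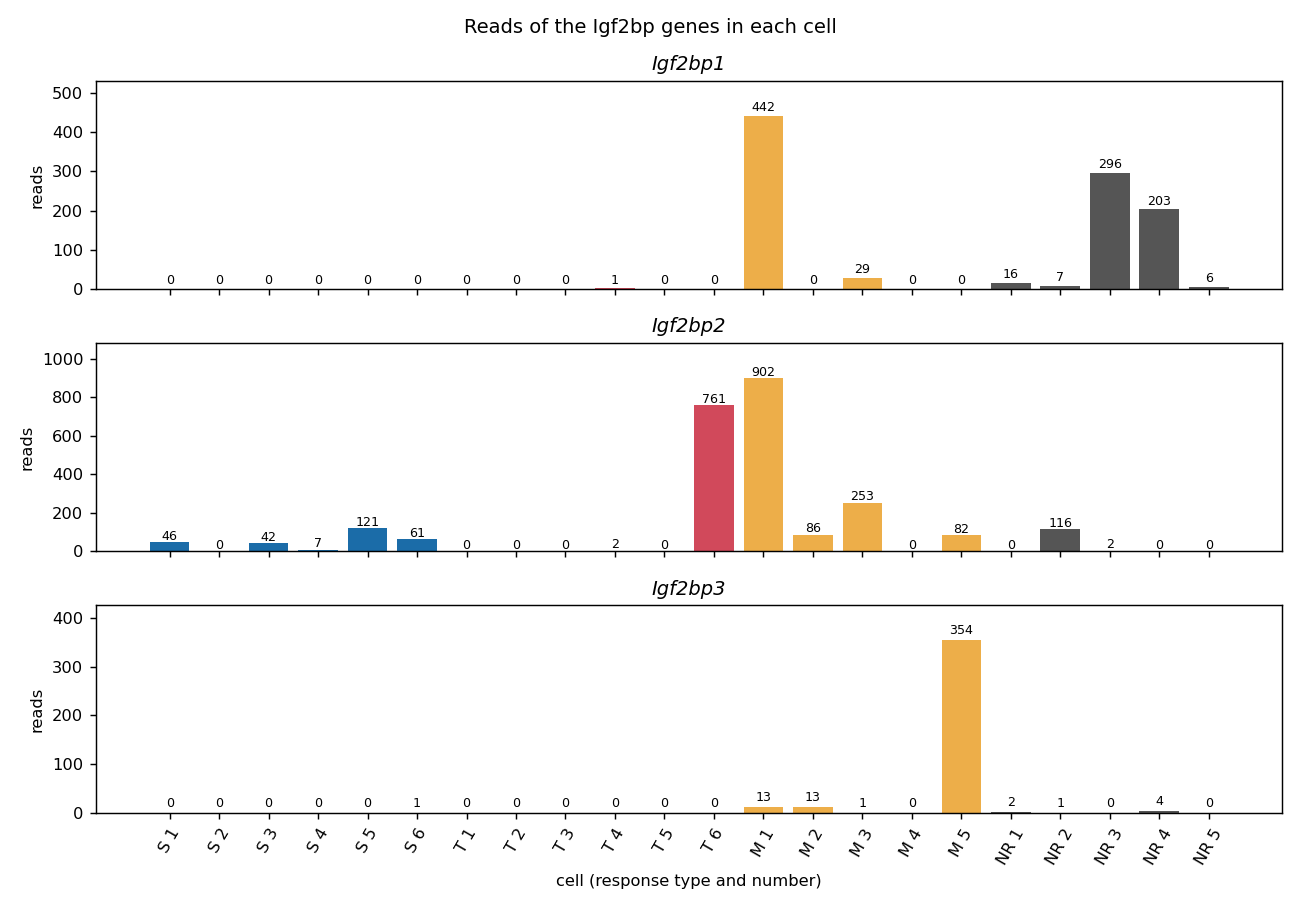
Reads of Igf2bp1, Igf2bp2 and Igf2bp3 in each of 22 cells (S, T, M, NR and cell number), 1 bar per cell on a linear axis, with the number of reads above it. Igf2bp1 had reads in all NR cells, Igf2bp2 in 5 S-type and 4 M-type cells, and 354 of the 389 Igf2bp3 reads lay in M-type cell 5.

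Igf2bp2, the family member that persists in adult tissues, had another distribution, with 2481 reads in 13 cells. S-type cells had 46, 0, 42, 7, 121 and 61 reads and M-type cells 902, 86, 253, 0 and 82. In T-type cells 761 of 763 reads lay in cell 6 and the other 2 in cell 4, and in NR cells 116 of 118 lay in cell 2 and the other 2 in cell 3. The gene was therefore spread over most S-type and M-type cells and held by a single cell in the other types.

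The level of Igf2bp2 was 155.7 (SD 232, n = 5) in M-type, 81.8 (SD 199, n = 6) in T-type, 35.5 (SD 34.3, n = 6) in S-type and 13.4 (SD 29.3, n = 5) in NR cells. The log2 ratio to NR was 3.53 (3.26 to 3.82) for M-type, 2.61 (2.32 to 2.90) for T-type and 1.40 (1.08 to 1.72) for S-type cells. Without T-type cell 6 the T-type ratio to NR was -4.20, and that to S-type cells went from 1.21 to -5.60. The M-type ratio was at least 1.99 without any one cell, and the S-type ratio at least 0.81. Without NR cell 2 the M-type ratio was 8.76 and the S-type ratio 6.62.

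Igf2bp3, known from embryonic and tumour cells, had 389 reads, of which 381 were in M-type cells. These had 13, 13, 1, 0 and 354 reads, NR cells had 2, 1, 0, 4 and 0, S-type cell 6 had 1, and T-type cells had none. The M-type ratio to NR was 5.35 (4.30 to 6.68) and 2.41 without M-type cell 5. The S-type ratio to NR, from 1 read against 7, was -2.75 with an interval of -8.25 to 0.21. The T-type ratio to NR, formed with 3 reads in place of 0, was -0.42, and 0.14 without T-type cell 6, so it gives no direction. Igf2bp3 shares 1529 exonic bases with Malsu1, a gene of mitochondrial ribosome assembly on the other strand, and Malsu1 had 33253 reads and an M-type ratio to NR of 1.25. M-type cell 5 had 1886 reads of Malsu1 and T-type cell 5 had 5767 with none of Igf2bp3. Where the genes overlap, the reads of one cannot be told from those of the other without strand.

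Reads of all 3 Igf2bp genes were found together in 3 cells. M-type cell 1 had 442, 902 and 13 reads of Igf2bp1, Igf2bp2 and Igf2bp3, M-type cell 3 had 29, 253 and 1, and NR cell 2 had 7, 116 and 1. M-type cell 4 had none of the 3, and neither did S-type cell 2 or T-type cells 1, 2, 3 and 5.

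**Figure D5:**
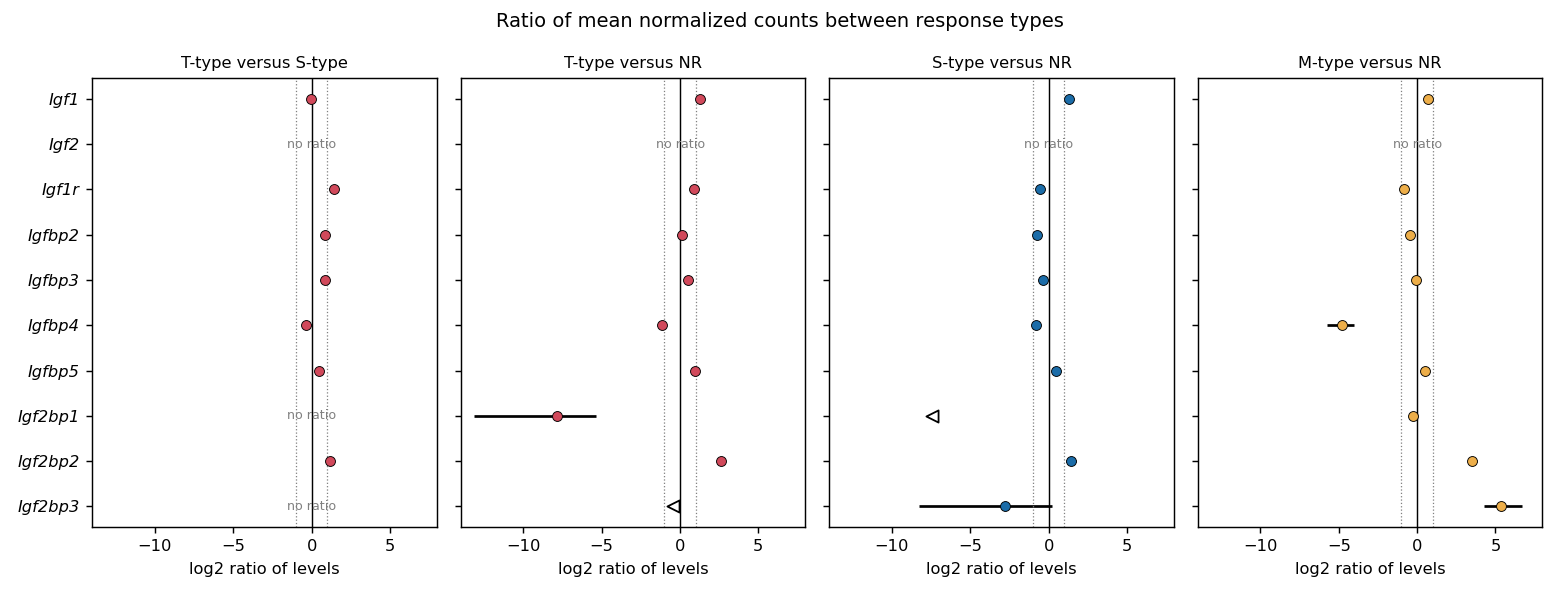
Log2 ratio of mean normalized counts for each member in 4 contrasts, with the first type over the second. Bars are 95% counting intervals, open triangles are bounds against a type without a read, dotted lines mark 2-fold, and no ratio is drawn where neither type exceeds 3 reads. Igf2bp1 lay below NR in T-type and S-type cells, and the mean of Igf2bp2 lay above NR in all 3 responding types. T-type cell 6 held 99.3% of the T-type level of Igf2bp2 and NR cell 2 held 97.9% of the NR level. Without T-type cell 6 the T-type ratio was -4.20.

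Ratios of at least 2-fold were common among all genes of these single cells, and the members are counted beside that background. T-type against S-type cells, 2 of the 7 members with a ratio were at least 2-fold higher (Igf1r and Igf2bp2) and 0 lower, beside 25.7% and 32.5% of all genes. T-type against NR, 2 of 9 were higher (Igf1 and Igf2bp2) and 2 lower (Igfbp4 and Igf2bp1), beside 28.4% and 32.8%. S-type against NR, 2 were higher (Igf1 and Igf2bp2) and 2 lower (Igf2bp1 and Igf2bp3), beside 25.1% and 22.5%. M-type against NR, 2 were higher (Igf2bp2 and Igf2bp3) and 1 lower (Igfbp4), beside 19.8% and 28.1%. The median log2 ratio of the members was 0.85, 0.50, -0.55 and -0.09 in this order of contrasts, and that of all genes was -0.09, -0.07, 0.03 and -0.20. The last 3 contrasts share the NR cells.

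The members were also counted by whether the cells of 2 types overlapped. Igf2bp1 was the 1 member of this kind, against NR in both T-type and S-type cells. No member was separate in T-type against S-type cells (0.851% of all genes) or in M-type against NR (0.65%).

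Of 15 other genes of the IGF and insulin system, 7 had a ratio in each contrast. T-type against NR, 2 were at least 2-fold higher and 4 lower, with a median log2 ratio of -1.04, and T-type against S-type cells 4 were higher and 2 lower, with a median of 1.46. S-type against NR 1 was higher and 4 lower, and M-type against NR 1 was higher and 3 lower. Of all genes, 28.4% were higher and 32.8% lower in T-type against NR, and 25.7% and 32.5% in T-type against S-type cells. The shares were 25.1% and 22.5% in S-type against NR and 19.8% and 28.1% in M-type against NR. Htra1, a secreted protease that can cleave binding proteins, had the most reads of them, 118020, of which 52777 were in T-type cell 2. Its level was 34718 (SD 76846, n = 6) in T-type and 2583 (SD 2416, n = 5) in NR cells, a log2 ratio of 3.75 that was 0.39 without T-type cell 2. Ins1, Igfbp1, Igfals and Pappa2 had no read in any type.

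Of 24 genes that relay the signal of the receptor, 22 had a ratio, and most stayed within 2-fold in M-type against NR (16) and in T-type against S-type cells (14). T-type against NR, 5 were at least 2-fold higher and 6 lower, beside 28.4% and 32.8% of all genes. S-type against NR, 6 were higher and 4 lower, beside 25.1% and 22.5%. For M-type against NR the shares of all genes were 19.8% higher and 28.1% lower, and for T-type against S-type cells 25.7% and 32.5%. Grb14, an adaptor that dampens insulin receptor signalling, was the 1 gene of them over 4-fold apart without overlap. It was separate in T-type against NR, as were 1.07% of all genes whose mean level reached 10. It had between 145 and 2624 reads in each NR cell and 2 reads over the T-type cells, both in cell 6. Its T-type log2 ratio to NR was -11.99, with a counting interval of -15.04 to -10.14, and S-type and M-type cells, at -2.79 and -2.49, overlapped with NR. Pik3ca, the catalytic subunit of phosphoinositide 3-kinase, Rps6kb1, a kinase of ribosomal protein S6, and Irs1, the receptor substrate, had reads in all 22 cells. Their S-type ratios to NR were 0.49, 1.57 and 0.33, and their T-type ratios were 1.05, 0.81 and 0.85. The T-type ratio of Rps6kb1 was -0.72 without T-type cell 1 and that of Irs1 -1.42 without T-type cell 3, while that of Pik3ca was 0.73 without NR cell 5 and 0.47 with CPM of pooled reads. The S-type ratio of Irs1 was -0.33 without S-type cell 1.

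Among 5 imprinted genes found in the table, 3 had a ratio. S-type and M-type against NR, 2 were at least 2-fold higher, beside 25.1% and 19.8% of all genes. T-type against NR, 1 was higher, beside 28.4%, namely Grb10 with 21 T-type reads, and its log2 ratio was -0.12 without T-type cell 6. S-type, T-type and M-type against NR, 1, 2 and 0 were lower, beside 22.5%, 32.8% and 28.1%. T-type against S-type cells, 0 were higher and all 3 were lower, beside 25.7% and 32.5%. Grb10, an adaptor related to Grb14, had 1819 of its 1901 reads in S-type cells and 0 in NR cells, so that S-type cells were at least 578-fold above NR. S-type cell 5 held 77.7% of that level, and without it the bound was 154.7-fold. Airn had 198 reads in M-type cells, all in cell 3, 115 in S-type cells, with 78.6% of the level in cell 3, and 2 and 4 in T-type and NR cells.

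Of 10 RNAs that Igf2bp proteins are known to bind, 7 had a ratio. T-type against S-type cells, 0 were at least 2-fold higher and 3 lower, beside 25.7% and 32.5% of all genes. Against NR, 1 was higher in each contrast, and 4, 3 and 2 were lower in T-type, S-type and M-type cells. Of all genes, 28.4%, 25.1% and 19.8% were higher and 32.8%, 22.5% and 28.1% lower in these contrasts. Actb, a main part of the cytoskeleton, and Cd44, a receptor for hyaluronan, had 750648 and 246428 reads and stayed within 2-fold in all 4 contrasts. The log2 ratios of Actb to NR were 0.62 in T-type, 0.26 in S-type and 0.04 in M-type cells. Btrc, a ubiquitin ligase subunit, was lower than NR in T-type (-1.17) and S-type cells (-1.15) and at -0.43 in M-type cells. Without NR cell 3, which held 56.9% of the NR level, these ratios were -0.28, -0.25 and 0.46, and T-type cell 1 held 99.0% of the T-type level. All 4 partners of Igf2bp1 in the complex on Myc messenger RNA had a ratio, and S-type and M-type cells stayed within 2-fold of NR for each. T-type against S-type cells, 3 of the 4 were at least 2-fold higher, beside 25.7% of all genes, with 1.40 for Ybx1, 1.24 for Syncrip and 1.03 for Hnrnpu. Each of the 3 fell under 2-fold when 1 cell was left out, at 0.89 without T-type cell 5, 0.78 without T-type cell 3 and 0.41 without T-type cell 1. With CPM of pooled reads they were 1.32, 0.47 and 0.54.

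Of 10 proliferation genes, all 10 were at least 2-fold higher in S-type than in NR cells, beside 25.1% of all genes, with a median log2 ratio of 4.51. In T-type against NR, 7 were higher, beside 28.4% of all genes, with a median log2 ratio of 1.66. These ratios rested on a few cells. Summed over the list, S-type cells 1 to 6 had 6529, 8429, 383, 241, 1285 and 100 CPM against 198 to 384 in NR cells, and T-type cell 5 had 5237 against at most 578 in the other T-type cells. M-type against NR, 5 were higher and 2 lower, beside 19.8% and 28.1% of all genes. M-type cell 2 had 1853 CPM and the other M-type cells 124 to 407. Rrm2, a subunit of ribonucleotide reductase, had a level of 6430 in S-type and 32.3 in NR cells, Top2a, a topoisomerase of dividing cells, 7746 and 148, and Pcna, the replication clamp, 11101 and 2961. Without the highest S-type cell these S-type levels were 3260, 3844 and 4297, and the Pcna ratio fell under 2-fold, to 0.54.

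Across the 22 cells the members followed each other weakly. The highest rank correlation between members was 0.52, for Igf1r and Igfbp3, followed by 0.47 for Igfbp2 and Igfbp3 and 0.43 for Igf1r and Igfbp2, and the lowest was -0.37, for Igfbp5 and Igf2bp2. All values of a cell share its depth and size factor. Among 10493 genes, Asah1, an acid ceramidase, was most like Igf1r (0.86) and was also among the 3 most like Igfbp3 (0.66). Rcn3 was most like Igfbp3 (0.79), Csf1 most like Igfbp2 (0.76), Sfrs18 most like Igfbp5 (0.81), Gbp2 most like Igfbp4 (0.79), Taf4b most like Igf2bp2 (0.85) and Supt7l most like Igf1 (0.71). With so many genes compared over 22 cells, these are descriptions only.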

How the data were processed

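Each of the 22 libraries held the amplified RNA of 1 cell. After trimming, the authors ran STAR against GRCm38, counted uniquely aligned exonic reads with VERSE, and deposited raw counts per gene symbol. The submitters' processing notes name STAR, HTSeq, GRCm38 and mm10. Versions and the use of strand in counting were not given in the sources used here. Without molecular identifiers a count is of amplified reads, so that no interval covers the amplification.

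Size factors (medians of ratios) rested on 3670 genes that no cell lacked (NumPy 2.4.6, pandas 2.3.3, Python 3.11.15). A type without a read was set to 3 reads divided by its summed size factors, and no ratio was formed where neither type exceeded 3 reads. Intervals were exact binomial or Poisson at 95% (SciPy 1.17.1). TMM factors came from edgeR 4.0.16 (R 4.3.3). RPKM used merged exons of GENCODE vM21. No test was run, since each type is 1 sample. A ratio counted from 2-fold, and all genes found in 5 or more cells gave the background. Cells were numbered within a type in the order of the samples. Steps were tested on simulated data.

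The members and lists were chosen with earlier results of these data known. All 10 members are named. From each list, the 3 genes with the most reads and those over 4-fold apart without overlap are named. For each member with a read in at least 11 cells, the gene most like it in rank correlation is given. Alternatives were other scalings, thinned cells, a pseudocount of 1, log means, medians, 4-fold, other detection and filter limits, other lengths, and leaving out each cell. Leaving out T-type cells 2 and 3 together, and the leave-outs and CPM for genes of the lists, were added after seeing the data. Collection times and the calcium recordings were not used here.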

Additional observations from a re-analysis of the deposited data

Results flagged for a closer look

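In 35 groups of cells (a member within a type), Dixon's criterion on log2 of the normalized count plus 1 marked 7 values as standing apart from the rest of their type. Chance marks about 1 in 20 groups of normally distributed values, a rate that does not apply to groups mostly at 0. Where only 1 cell has a read, Dixon's ratio is 1 whatever the count, as for Igf2 in M-type, Igf2bp1 in T-type and Igf2bp3 in S-type cells. For 4 members a single cell held nearly all reads of its type: Igf2bp2 was at 487 normalized counts in T-type cell 6 and at 65.8 in NR cell 2, Igfbp4 at 7.70 in M-type cell 2, Igf2bp1 at 1.82 in T-type cell 4 and Igf2bp3 at 0.742 in S-type cell 6, and the last 2 values stand for 1 read each. Igf2 was at 0.700 in M-type cell 2, also from 1 read. In the other direction, Igf1 was at 0 in NR cell 5 while the other 4 NR cells had 131 to 257.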

How the results depend on the processing

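Of 13 member ratios past 2-fold, 9 kept their direction under every alternative that gave a value, and 5 also stayed past 2-fold, namely Igf2bp1 in T-type and S-type against NR, and Igf2bp2, Igf2bp3 and Igfbp4 in M-type against NR. Igf2bp2 in T-type against S-type cells reversed with log means (-2.32), with medians (-5.74) and without T-type cell 6 (-5.60), and against NR without that cell (-4.20). Igf1 in S-type against NR reversed with log means (-0.55), with medians (-0.32) and without S-type cell 1 (-0.92), and Igfbp4 in T-type against NR without NR cell 3 (1.39). Over the cells left out in turn, the 4 ratios ranged from -5.60 to 1.80, -4.20 to 7.83, -0.92 to 1.62 and, for Igfbp4, -4.63 to 1.39. The cause of these shifts was not tested beyond the cells left out.

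T-type against S-type cells, the 2 members at least 2-fold higher became 1 with CPM of pooled reads, mean CPM, thinned cells and without T-type cells 2 and 3, and 0 with log means and at 4-fold, and the 0 lower became 2 with log means and medians. T-type against NR, the 2 higher became 1 with CPM of pooled reads, mean CPM and 4-fold and 0 with log means, and the 2 lower became 1 with CPM of pooled reads, TMM, 4-fold and without T-type cells 2 and 3. S-type against NR, the 2 higher became 1 with log means and 0 at 4-fold, and the 2 lower became 1 with thinned cells, a pseudocount, log means and medians. M-type against NR, the 1 lower became 3 with log means and medians. Leaving out 1 cell gave 1 to 4 higher and 0 to 2 lower in T-type against S-type cells, 2 to 4 and 1 to 3 in T-type against NR, 1 to 4 and 1 to 4 in S-type against NR, and 2 to 4 and 1 to 2 in M-type against NR. The median ratio of all genes moved by -0.48 in both T-type contrasts with CPM of pooled reads, by -0.37 and -0.40 with mean CPM, by -0.12 and -0.11 with thinned cells, and by 0.11 and 0.10 in M-type against NR with the 2 CPM scalings. With all genes rather than those in 5 cells, or with a mean level of at least 10, each background share stayed within 1.5 times its value. Medians gave no value for Igf2bp2 in T-type against NR, since both were 0, and thinned cells gave none for Igf2bp3 in S-type and T-type against NR. No paired analysis was possible because no result comes from a test. Single reads or a few reads decide detection for Igf2, for many cells of Igf2bp3 and Igfbp4, and for the T-type and lowest NR values of Igf2bp1. The part of depth in this was not tested.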
